A study of Mus musculus with 12 samples.

Results

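The comparison described here set wild-type (WT) mouse embryonic fibroblasts exposed to the TEAD inhibitor MGH-CP1 (CP1) for 4 days against the same kind of cells exposed for 2 days. Its libraries were taken by their labels, 2 of CP1 day 4 and 2 of CP1 day 2, which makes 4 of the 12 libraries of the study. All genes were used except those whose deposited type is rRNA, Mt_rRNA or miRNA. The fibroblasts came from E13.5 embryos, were at passage 4 to 10, and were WT or lacked both LATS kinases (Lats1/2 DKO). They received 1 µM CP1 in DMSO, or DMSO alone, for 2 or 4 days before total RNA was isolated. Beside the 4 WT CP1 libraries stand 1 WT DMSO library of day 4 and 1 of day 2, which show what the same days did without the drug. The DKO cells gave 2 CP1 libraries for day 4, 2 for day 2, and 1 DMSO library for each day. The labels do not say whether repeats were separate cultures or how many embryos stood behind a genotype, so a p-value speaks only for the spread among these libraries, and that spread may be technical. Unless another group is named, "day 4" and "day 2" below mean the WT CP1 libraries.

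TEAD proteins bind DNA and turn genes on together with the co-activators YAP and TAZ, which the LATS kinases of the Hippo pathway phosphorylate and hold out of the nucleus. TEAD proteins carry a palmitate in a central pocket, and CP1 is known as an inhibitor of TEAD palmitoylation. Fibroblasts make the collagens and glycoproteins of connective tissue, and like most cells they answer type I interferon with a set of antiviral genes.

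Several properties of the libraries bear on the results. Totals ran from 16970834 to 25299262 counts over the 12 libraries, at which a level of 1 CPM, counts scaled to the library total, stands for 17.1 to 25.9 reads. Among genes with at least 20 reads in a pair, chi-square divided by its degrees of freedom was 2.52 between the 2 day 4 libraries and 4.89 between the 2 day 2 libraries, while day 4 against day 2 gave 18.6 to 23.9. The WT DMSO libraries of day 4 and day 2 gave only 1.95, no more than a pair of repeats. Their descriptions carry no day, so that their day rests on their titles and on the column names. Reads of rRNA made up 2.18% and 2.06% of the day 4 libraries, against 2.61% and 0.0333% of the day 2 libraries, and 0.033% and 0.0319% of the WT DMSO libraries of days 4 and 2. In the gene types left out, repeat 2 of day 2 thus went with the WT DMSO libraries, and the other 3 WT CP1 libraries stood apart from them. Repeat 2 of day 4 held liver transcripts: 16 of them, a list made after the counts were seen, summed to 247 counts in repeat 1 and 2888 in repeat 2 of day 4, against 269 and 247 on day 2 and 208 and 232 in WT DMSO on days 4 and 2. The heart transcripts Myh6, Myl2, Actc1 and Mb summed to 0 and 101 counts on day 4, against 1 and 4 on day 2 and 1 and 49 in WT DMSO on days 4 and 2. The part of these transcripts in a result was not tested, and counts without repeat 2 of day 4 are given beside those with it.

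The targeted genes went with the genotype labels. Lats1 stood at 106 and 108 CPM on day 4 and 94.75 and 95.9 CPM on day 2, and in DKO CP1 cells at 40.95 and 40.3 CPM on day 4 and 39.7 and 35.8 CPM on day 2. Lats2 stood at 55.05 and 53.4 CPM on day 4 and 48.8 and 54.1 CPM on day 2, against 19.8 and 19.7 and 16.9 and 17.4 CPM in DKO CP1 cells. Of 16 fibroblast markers 14 passed the filter on low counts, among them the PDGF receptor gene Pdgfra at 292 and 294 CPM on day 4 and 357 and 352 CPM on day 2. The markers summed to 4770 and 4790 CPM on day 4 against 5270 and 5290 CPM on day 2. For markers of other cells, summed levels on day 4 and day 2 lay between 4.52 and 6.14 CPM for macrophages, between 8.9 and 10.6 CPM for epithelium, between 21 and 27.1 CPM for endothelium and between 3.03 and 4.82 CPM for skeletal muscle. Higher sums were those of adipocyte markers (42.3 to 48.6 CPM), cartilage and bone markers (119 to 204 CPM) and neural markers (299 to 317 CPM).

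Between day 2 and day 4 of CP1, 2568 of 16563 genes tested changed (15.5%; edgeR adjusted p under 0.05), 1169 of them higher on day 4 (7.06%) and 1399 lower (8.45%). Most of the changes were small. The median called gene rose 1.18-fold or fell 1.28-fold, and at least 2-fold changes numbered 47 genes higher (0.284%) and 152 lower (0.918%). Of these, 8 and 80 had a mean of at least 4 CPM over the 4 libraries. Among the 152 genes that fell at least 2-fold, 31 (20.4%) belonged to the interferon or class I antigen presentation lists, and 0 of the 47 that rose did. The number of calls was 1346 without repeat 1 and 1302 without repeat 2 of day 4, and 1336 without repeat 1 and 1173 without repeat 2 of day 2. Of 134 genes named by the rule and called, 109 were also called without repeat 2 of day 4, and 96 were called whichever of the 4 libraries was left out. Under all settings tried 45 of them were called, 48 lost the call only in limma tests of the deposited TPM, and 41 lost it in another setting too, as stated beside those described. In bulk RNA, fewer cells of a kind and less RNA per cell cannot be told apart.

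In DMSO the same interval gave no calls. Day 4 against day 2 in WT DMSO gave 0 called genes by edgeR and 0 by DESeq2, with 484 and 65 genes at an unadjusted p under 0.05. Limma tests of the deposited TPM called 70 genes with a pseudocount of 1 and 111 with 0.1. With 1 library on each side the test assumes that a DMSO library varies like the CP1 pairs. Among the 1169 genes higher on day 4 of CP1 the WT DMSO change had a median log2 of 0.002 and middle quartiles from −0.058 to 0.052. Among the 1399 lower genes it had a median of 0.01 and quartiles from −0.05 to 0.062. The plot of both day changes shows a wide spread along the CP1 axis and a narrow one along the DMSO axis.

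**Figure D1:**
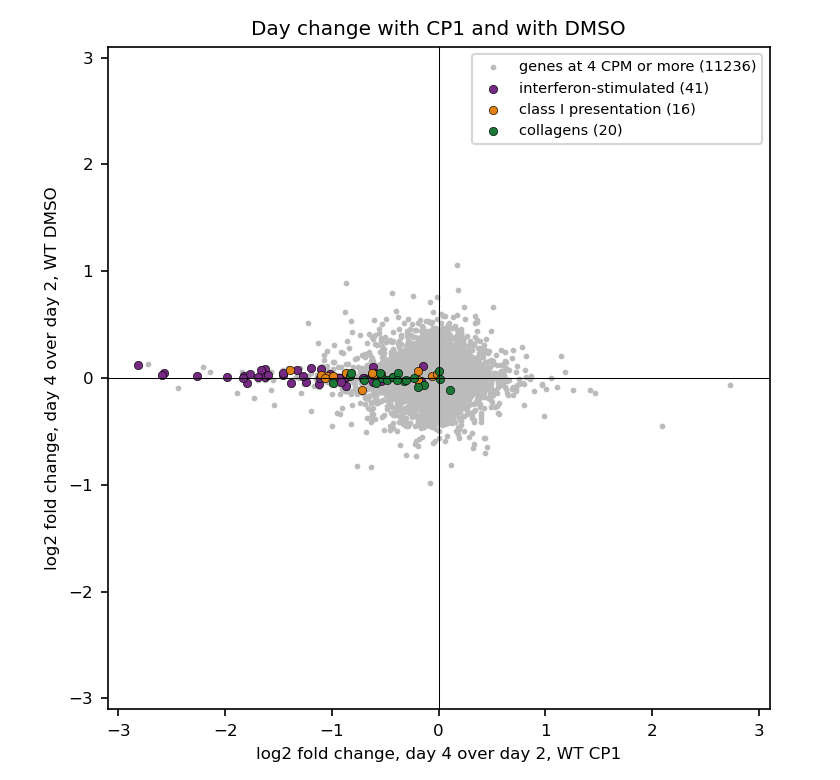
Log2 change from day 2 to day 4 in WT CP1 (horizontal axis) against that in WT DMSO (vertical axis) for 11236 genes with a mean of at least 4 CPM, with 41 interferon-stimulated, 16 class I and 20 collagen genes in colour. All genes plotted lie between −0.984 and 1.063 on the DMSO axis, the interferon-stimulated genes reach far to the left of 0 on the CP1 axis, and the single dot far to the right is the liver transcript Alb, which was high in repeat 2 of day 4 alone and was not called.

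The 12 genes with the largest fall were mostly antiviral genes that already stood below DMSO on day 2 and stood lower still on day 4. All 12 lay below both WT DMSO libraries on both days. Having been picked for their fall, they lay farther below them on day 4. Irf7 (ENSMUSG00000025498.15, mm10 chromosome 7, 141262706 to 141266481, minus strand), the transcription factor that amplifies type I interferon, had 22.02 and 24.95 CPM in the day 4 libraries, against 137 and 142 CPM in the day 2 libraries and 1088 and 1051 CPM in WT DMSO on days 4 and 2. The days did not overlap, and each stood far below DMSO. Its log2 change from day 2 to day 4 was −2.57 ± 0.057 (SE; adjusted p = 2.31e-22 by edgeR), and 0.05 in DMSO. Rsad2 (ENSMUSG00000020641.16, mm10 chromosome 12, 26442746 to 26456452, minus strand), which encodes the antiviral enzyme viperin, had 1.43 and 1.14 CPM on day 4 against 8.9 and 9.27 CPM on day 2, where WT DMSO held 311 and 285 CPM. On day 4 the transcript was close to the limit of counting, and its change was −2.815 ± 0.167 (SE; adjusted p = 4.47e-13 by edgeR). The oligoadenylate synthetase gene Oas2 had 13.2 and 11.6 CPM on day 4, against 73.98 and 75.7 CPM on day 2, and changed by −2.59 ± 0.066 (SE; adjusted p = 5.38e-21 by edgeR).

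Other interferon-induced genes among the 12 showed the same order of groups. Mx1, a dynamin-like GTPase against viruses, had 3.52 and 3.5 CPM on day 4 and 16 and 17.7 CPM on day 2, with 331.5 and 327 CPM in WT DMSO. Its change was −2.26 ± 0.178 (SE; adjusted p = 2.4e-06 by edgeR). The guanylate-binding protein gene Gbp3 had 28.1 and 25.97 CPM on day 4 against 93.2 and 97.8 CPM on day 2, and its change was −1.82 ± 0.057 (SE; adjusted p = 5.07e-19 by edgeR). The remaining ones were the nucleic acid sensor gene Zbp1 at −1.98, Ifit3b, whose protein binds viral RNA, at −1.83, Ifi44 at −1.79 and Ifi27l2a at −2.20 (edgeR adjusted p from 2.3e-18 for Ifi44 to 1.04e-11 for Zbp1). Ifit3b and Ifi27l2a have close relatives between which reads may have been divided, so their values are less certain.

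The other 3 of the 12 are not counted among antiviral genes. Apod (ENSMUSG00000022548.14, mm10 chromosome 16, 31296192 to 31314808, minus strand), a lipid-binding lipocalin, had 3.01 and 3.46 CPM on day 4 against 20.03 and 22.65 CPM on day 2, while WT DMSO held 551.5 and 505 CPM. Its change was −2.72 ± 0.108 (SE; adjusted p = 6.95e-17 by edgeR). Igfbp2 (ENSMUSG00000039323.18, mm10 chromosome 1, 72824503 to 72852474, plus strand), a secreted binder of insulin-like growth factors, had 112 and 93.6 CPM on day 4, against 451 and 456 CPM on day 2 and 655 and 629.9 CPM in WT DMSO. It stood below DMSO on day 2 and far below it on day 4, a change of −2.14 ± 0.058 (SE; adjusted p = 2.48e-17 by edgeR). Arhgap36, known for its effect on protein kinase A and Hedgehog signalling, had 4.48 and 4.2 CPM on day 4 against 21.96 and 25.1 CPM on day 2, a change of −2.44 ± 0.098 (SE; adjusted p = 8.16e-17 by edgeR).

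**Figure D2:**
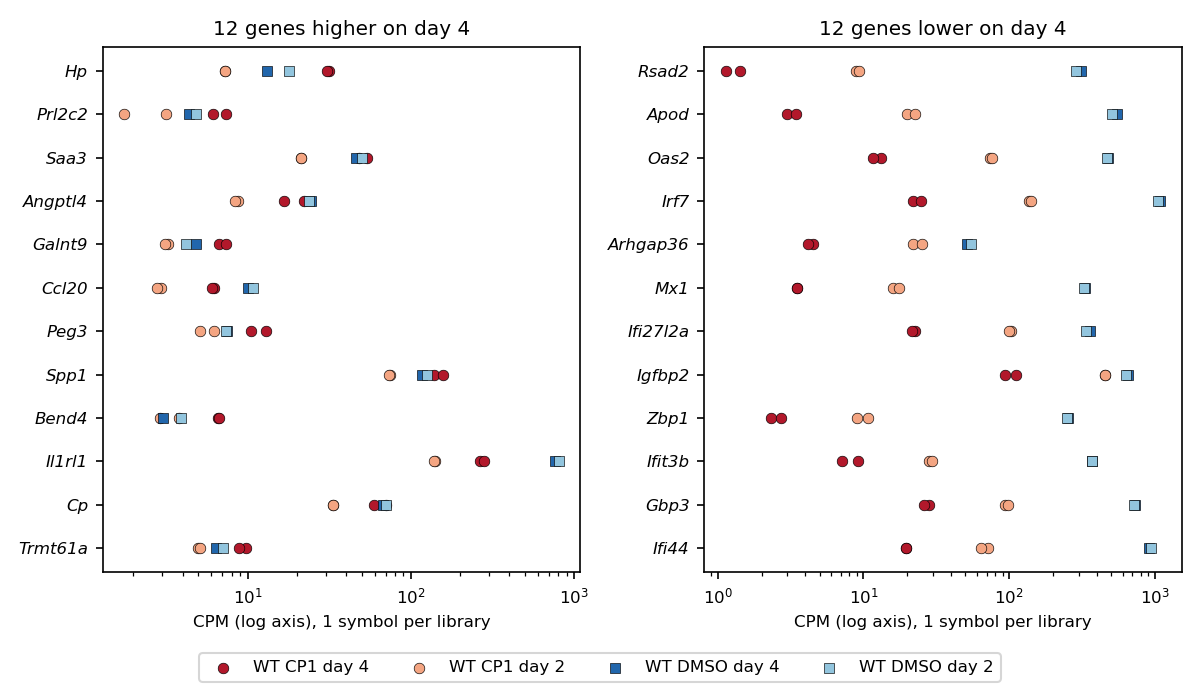
CPM on a log axis of the 12 genes that rose most (left) and the 12 that fell most (right) from day 2 to day 4, 1 symbol per library for WT CP1 day 4, WT CP1 day 2, WT DMSO day 4 and WT DMSO day 2. The lower genes run from Rsad2, at 1.43 and 1.14 CPM on day 4, to Igfbp2, at 112 and 93.6 CPM, each with both days below DMSO. Among the higher genes day 4 lies closer to DMSO than day 2 on the log axis in 8 of 12.

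All 43 of the 43 interferon-stimulated genes fell from day 2 to day 4, beside 8.45% of all genes. Their median log2 change was −1.24, with a range from −2.815 to −0.151, beside −0.004 over all genes tested and 0.014 for the list in WT DMSO. Relative to the WT DMSO mean, the median member stood at 7.1% and 7.24% in the day 4 libraries, against 15.5% and 16.1% in the day 2 libraries. In each of the 43 genes both day 4 libraries lay below both day 2 libraries, and both day 2 libraries lay below both WT DMSO libraries. Over all genes tested, both day 4 libraries lay below both day 2 libraries in 29.1% and above them in 28.2%. For the order against DMSO no share over all genes was computed. Leaving out repeat 1 or 2 of day 4 or repeat 1 or 2 of day 2 gave 40, 40, 41 and 40 lower calls.

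**Figure D3:**
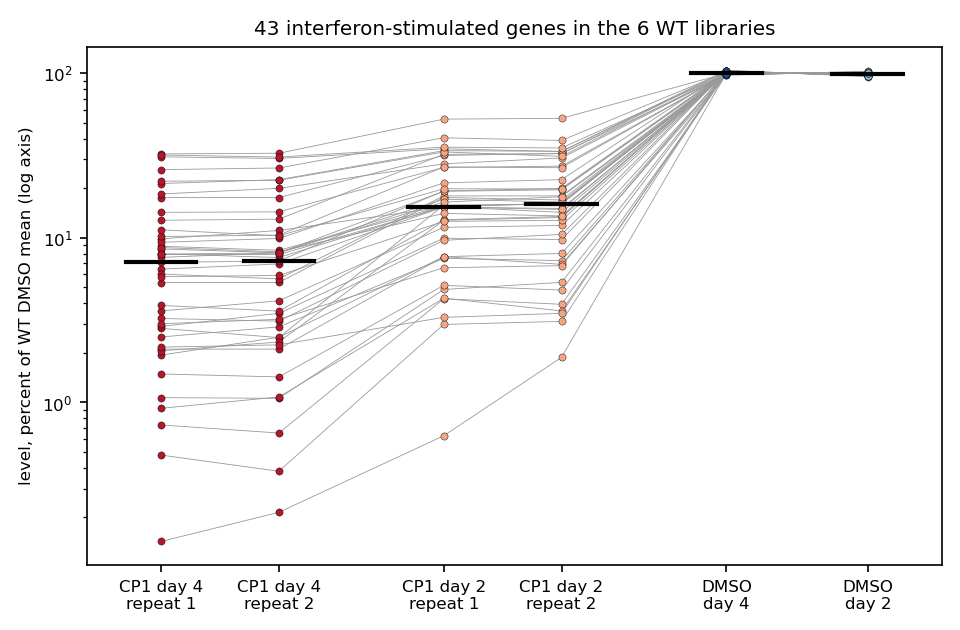
Level of 43 interferon-stimulated genes in the 6 WT libraries as percent of the mean of the WT DMSO libraries (log axis), with a line for each gene and a bar at the median. The medians are 7.1% and 7.24% on day 4, 15.5% and 16.1% on day 2, and 100% and 99.5% in DMSO on days 4 and 2.

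The genes of class I antigen presentation, which display peptides of the cell's own proteins to T cells, fell in 14 of 16, with a median log2 change of −0.62. The median member stood at 27.6% of the WT DMSO mean on day 4, against 45.4% on day 2. The class I heavy chain gene H2-K1 had 1182 and 1228.5 CPM on day 4 against 2519 and 2643 CPM on day 2, where WT DMSO held 4749.9 and 4648 CPM. Its change was −1.10 ± 0.046 (SE; adjusted p = 3.05e-16 by edgeR). The class Ib genes H2-T23 and H2-T22 changed by −1.39 ± 0.052 (SE; adjusted p = 2.48e-17 by edgeR) and −1.07 ± 0.044 (SE; adjusted p = 1.01e-16 by edgeR). Heavy chain genes are close copies of each other, and 29.4% of the exon bases of H2-T22 are shared with another gene, so their separate values are uncertain. Without 1 of the libraries, in the order repeat 1 and repeat 2 of day 4 and repeat 1 and repeat 2 of day 2, the lower calls numbered 12, 12, 12 and 14. Counts without 1 library are given in that order below. Every list count of calls for this day change stands beside 7.06% higher and 8.45% lower among all genes.

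Promoters of 2 of these genes are printed to show the interferon-stimulated response motif that recurs in the list, GAAA, any 2 bases and GAAA again, read on both strands and with overlapping matches allowed. The windows run from 250 bases before to 50 bases after the RefSeq start on GRCm38.p6, 5′ to 3′ on the strand of the gene, with the matches in capitals. Gbp3 lies at chr3:142559794-142560093 on the plus strand and holds 2 overlapping matches that begin 45 and 39 bases before the start, and Rsad2 lies at chr12:26456403-26456702 on the minus strand and holds 1, 120 bases before it.
Gbp3: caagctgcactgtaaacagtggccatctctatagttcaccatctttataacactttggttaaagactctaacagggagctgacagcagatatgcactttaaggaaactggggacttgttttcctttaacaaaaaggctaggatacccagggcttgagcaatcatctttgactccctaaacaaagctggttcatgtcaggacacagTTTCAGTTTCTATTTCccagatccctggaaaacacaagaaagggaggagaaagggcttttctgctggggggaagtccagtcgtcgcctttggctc
Rsad2: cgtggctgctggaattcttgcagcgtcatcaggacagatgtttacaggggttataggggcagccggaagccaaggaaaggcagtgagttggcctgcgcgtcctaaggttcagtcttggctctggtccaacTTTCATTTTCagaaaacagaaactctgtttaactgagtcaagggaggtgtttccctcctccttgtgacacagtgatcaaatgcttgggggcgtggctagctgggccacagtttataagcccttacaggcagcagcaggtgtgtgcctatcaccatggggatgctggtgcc
The motif was present in 20 of 32 promoters of the interferon list (62.5%), in 8.57% of 934 promoters of genes called lower, in 2.84% of 845 promoters of genes called higher and in 3.14% of all 14207 promoters of the same length. The Irf7 window held none. A match is a run of letters and does not show that a factor binds there.

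Genes that rose from day 2 to day 4 did so less far, and of the 12 with the largest rise 8 moved nearer to their level in DMSO on the log scale. Hp, at 47.2% of the WT DMSO mean on day 2 and 202% on day 4, counts among the 8. Picking genes by their rise favours a low level on day 2, and no such share was computed over all genes. On day 2, 11 of these 12 lay below both WT DMSO libraries and 1 overlapped them. On day 4 they lay above both in 7, below both in 3 and overlapped in 2. Hp (ENSMUSG00000031722.10, mm10 chromosome 8, 109575128 to 109579172, minus strand), the haemoglobin-binding acute phase protein haptoglobin, had 31.6 and 30.8 CPM on day 4 against 7.32 and 7.3 CPM on day 2, and 13.1 and 17.9 CPM in WT DMSO on days 4 and 2. Its day 2 libraries stood below DMSO and its day 4 libraries above it. The change was 2.09 ± 0.114 (SE; adjusted p = 7.65e-14 by edgeR), and 2.12 without repeat 2 of day 4. Saa3 (ENSMUSG00000040026.8, mm10 chromosome 7, 46711998 to 46715700, minus strand), an acute phase gene of the serum amyloid A family, had 47.8 and 53.8 CPM on day 4 against 21.3 and 21.2 CPM on day 2, with 46.3 and 49.95 CPM in WT DMSO. Day 4 overlapped DMSO, and the change was 1.26 ± 0.082 (SE; adjusted p = 3.8e-12 by edgeR). Cp, the copper-carrying ferroxidase ceruloplasmin, had 59.6 and 70.6 CPM on day 4 and 33.5 and 33.1 CPM on day 2, a change of 0.97 ± 0.075 (SE; adjusted p = 1.36e-10 by edgeR). Hp, Saa3 and Cp are also made by liver, whose transcripts were high in repeat 2 of day 4. In repeat 1 of day 4, where those transcripts were not high, all 3 stood above both day 2 libraries. Further acute phase genes, singled out after their values were seen, did not all rise. Lbp fell by −0.51 ± 0.087 (SE; adjusted p = 0.000103 by edgeR). Serpina3n rose by 0.24 ± 0.075 (SE; adjusted p = 0.0361 by edgeR), and Lcn2 was not called (0.225, edgeR adjusted p = 0.0615).

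Other secreted and receptor genes made up much of the rest. Il1rl1 (ENSMUSG00000026069.15, mm10 chromosome 1, 40429570 to 40465415, plus strand), the receptor for interleukin 33, had 266 and 279 CPM on day 4 against 140.2 and 138 CPM on day 2, and 767 and 805 CPM in WT DMSO. Both days lay far below DMSO, day 4 less so, and the change was 0.97 ± 0.048 (SE; adjusted p = 7.97e-15 by edgeR). The bone and matrix phosphoprotein gene Spp1 had 139.5 and 157 CPM on day 4 against 74.4 and 73.1 CPM on day 2, a change of 1.01 ± 0.072 (SE; adjusted p = 8.86e-08 by edgeR). About 18.8% of the exon bases of Spp1 are shared with another gene. Ccl20, a chemokine that attracts lymphocytes, had 6.26 and 6.01 CPM on day 4 against 2.94 and 2.77 CPM on day 2, a change of 1.10 ± 0.174 (SE; adjusted p = 4.08e-05 by edgeR). Angptl4, an inhibitor of lipoprotein lipase, had 16.7 and 22.05 CPM on day 4 against 8.68 and 8.35 CPM on day 2, a change of 1.185 ± 0.131 (SE; adjusted p = 1.31e-07 by edgeR), and 0.979 without repeat 2 of day 4.

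The last 5 of the 12 were genes of low level. Prl2c2, which encodes the placental-type hormone proliferin, rose by 1.46 ± 0.2 (SE; adjusted p = 5.2e-06 by edgeR), with reads that may be shared with its near-identical copies. The glycosyltransferase gene Galnt9 rose by 1.15 ± 0.202 (SE; adjusted p = 0.000186 by edgeR). Peg3, a paternally expressed zinc finger gene, rose by 1.05 ± 0.176 (SE; adjusted p = 8.83e-05 by edgeR). The BEN-domain gene Bend4 and the tRNA methyltransferase gene Trmt61a rose by 0.98 ± 0.169 (SE; adjusted p = 0.00012 by edgeR) and 0.895 ± 0.146 (SE; adjusted p = 6.26e-05 by edgeR).

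Among 24 NF-kB targets and cytokines 6 rose and 2 fell, beside 7.06% and 8.45% of all genes, with a median of 0.18. The members that rose were Saa3 and Ccl20, the chemokine genes Ccl2 (0.29) and Ccl7 (0.23), the macrophage growth factor gene Csf1 (0.15) and Nfkb1 (0.21; edgeR adjusted p at most 0.0249 for these 4). Those that fell were the chemokine gene Ccl5, which interferon also induces, at −1.51 ± 0.197 (SE; adjusted p = 2.21e-06 by edgeR), and the adhesion molecule gene Vcam1, at −0.19 ± 0.047 (SE; adjusted p = 0.00602 by edgeR). Vcam1 lost its call whichever of the 4 libraries was left out. With 1 library left out in turn the higher calls numbered 6, 3, 2 and 4. The Saa3 promoter is shown because it holds a match to the C/EBP motif TTGCNNAA, 99 bases before the start at chr7:46715627-46715926 (minus strand, matches in capitals, RefSeq GRCm38.p6). On either strand this motif was present in 9.31% of all promoters, in 6.75% of those of genes called higher and in 8.57% of those of genes called lower.
Saa3: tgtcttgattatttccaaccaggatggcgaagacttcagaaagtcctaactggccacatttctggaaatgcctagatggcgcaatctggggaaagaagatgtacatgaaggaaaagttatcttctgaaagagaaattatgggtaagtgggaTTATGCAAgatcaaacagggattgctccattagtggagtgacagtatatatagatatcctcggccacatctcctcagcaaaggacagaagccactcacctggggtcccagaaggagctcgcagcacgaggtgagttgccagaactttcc
Cebpd, a C/EBP family gene singled out after its values were seen, had 155 and 157 CPM on day 4 against 101 and 103 CPM on day 2, a change of 0.61 ± 0.053 (SE; adjusted p = 1.69e-09 by edgeR). WT DMSO held 212.5 and 208 CPM of Cebpd on days 4 and 2, so both days of CP1 lay below it. A link between Cebpd and Saa3 was not tested.

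Most collagen and matrix glycoprotein genes fell. Of 20 collagen genes 16 were lower on day 4 and 0 higher, with a median log2 change of −0.41 beside −0.013 in WT DMSO. The median member stood at 73.8% of the WT DMSO mean on day 4 and at 101% on day 2, when 10 of the 20 were above that mean and the others below it. Col4a1, for example, had 226 and 227 CPM on day 4 against 331 and 331 CPM on day 2 and 498 and 481 CPM in WT DMSO, whereas Col11a1 had 239.7 and 227 CPM on day 4 against 422 and 409.9 CPM on day 2 and 289 and 285 CPM in WT DMSO. Col1a2 (ENSMUSG00000029661.16, mm10 chromosome 6, 4504814 to 4541544, plus strand), a chain of fibrillar type I collagen, had 3806 and 3742 CPM on day 4 against 6143 and 6098 CPM on day 2 and 7099 and 7193 CPM in WT DMSO. Its change was −0.70 ± 0.04 (SE; adjusted p = 1.85e-13 by edgeR). Col14a1, a collagen bound to fibril surfaces, had 48.02 and 44.8 CPM on day 4 against 93.6 and 90.2 CPM on day 2, a change of −0.985 ± 0.062 (SE; adjusted p = 1.49e-12 by edgeR). Its day 2 libraries overlapped DMSO, which held 90.97 and 94.2 CPM. The called members also took in the basement membrane chains Col4a1 (−0.545) and Col4a2 (−0.48) and the type III and type VI chains Col3a1 (−0.53) and Col6a1 (−0.30; edgeR adjusted p at most 2.87e-06).

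Of 30 matrix glycoproteins, proteoglycans and crosslinking enzymes 22 fell and 2 rose, with a median of −0.32. Mfap4, a microfibril-associated protein, had 8.11 and 8.09 CPM on day 4 against 25.5 and 25.7 CPM on day 2, a change of −1.66 ± 0.116 (SE; adjusted p = 1.66e-11 by edgeR). The basement membrane gene Nid2 changed by −0.56 ± 0.043 (SE; adjusted p = 9.44e-11 by edgeR) and stood below the day 2 level in both day 4 libraries. The 2 that rose were the tenascin gene Tnc, with 574 and 592 CPM on day 4 against 456 and 441 CPM on day 2, and the small proteoglycan gene Dcn (decorin), with 703 and 746 CPM against 600.5 and 602.5 CPM. Their changes were 0.38 ± 0.043 (SE; adjusted p = 2.21e-07 by edgeR) and 0.27 ± 0.043 (SE; adjusted p = 4.41e-05 by edgeR). Both genes had been lower than in WT DMSO on day 2 and remained so on day 4.

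Enzymes that cut the matrix, and their inhibitors, fell in 12 of 22 and rose in 0, with a median of −0.19. The aggrecan-cleaving protease gene Adamts5 had 147 and 136 CPM on day 4 against 234 and 233 CPM on day 2, a change of −0.72 ± 0.05 (SE; adjusted p = 1.25e-11 by edgeR). Adamts1, of the same family, changed by −0.41 ± 0.048 (SE; adjusted p = 3.52e-07 by edgeR). Leaving out 1 library in turn, the lower calls of this list numbered 9, 8, 8 and 7, those of the collagens 14, 16, 15 and 16 and those of the matrix glycoproteins 19, 19, 20 and 19.

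Direct targets of YAP/TAZ-TEAD were mostly not called. Of 22 genes of that list 6 rose and 2 fell, beside 7.06% and 8.45% of all genes, and 14 were not called. The lower calls were thus near the share of all genes and the higher calls above it, with 4, 5, 6 and 4 higher calls without 1 library. The median log2 change was −0.051. The median member stood at 84.8% of the WT DMSO mean on day 4, against 73.6% on day 2. Ccn2 (ENSMUSG00000019997.11, mm10 chromosome 10, 24595442 to 24598683, plus strand), a matricellular protein and a standard readout of YAP activity, had 54.7 and 54.5 CPM on day 4 against 36.8 and 34.5 CPM on day 2 and 62.4 and 63.8 CPM in WT DMSO. Its day 4 libraries lay nearer to DMSO than its day 2 libraries, and the change was 0.62 ± 0.059 (SE; adjusted p = 9.43e-09 by edgeR). The gene shares 23.2% of its exon bases with an overlapping gene. Its relative Ccn1 (ENSMUSG00000028195.4, mm10 chromosome 3, 145646976 to 145649981, minus strand) had 271 and 250.5 CPM on day 4 against 205 and 218.5 CPM on day 2 and 223 and 217 CPM in WT DMSO. Ccn1 was thus above both DMSO libraries on day 4 and overlapped them on day 2, a change of 0.30 ± 0.047 (SE; adjusted p = 4.37e-05 by edgeR).

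The largest rise in the list was that of Igfbp3, a binder of insulin-like growth factors, with 276 and 286 CPM on day 4 against 174 and 165 CPM on day 2 and 562 and 587 CPM in WT DMSO. Its change was 0.73 ± 0.059 (SE; adjusted p = 2.52e-08 by edgeR). The members that fell were the secreted matrix gene Ccdc80, at −0.79 ± 0.05 (SE; adjusted p = 3.77e-12 by edgeR), and Nt5e, the ectoenzyme CD73, at −1.155 ± 0.247 (SE; adjusted p = 0.00144 by edgeR), whose call was lost without repeat 2 of day 4. Amotl2, an angiomotin that holds YAP in the cytoplasm, had 249 and 240.4 CPM on day 4 and 236.5 and 244 CPM on day 2, and was not called (edgeR adjusted p = 0.783). Axl, a receptor tyrosine kinase, had 622 and 621 CPM on day 4 and 653.5 and 648 CPM on day 2 (edgeR adjusted p = 0.321). Ankrd1, a nuclear cofactor gene much used as a YAP readout, was at or below 0.59 CPM in all 4 libraries.
The promoter of Ccn1 is shown for its match to the TEAD motif GGAATG, on the opposite strand, which begins 103 bases before the start; it lies at chr3:145649936-145650235 (minus strand, RefSeq GRCm38.p6, match in capitals).
Ccn1: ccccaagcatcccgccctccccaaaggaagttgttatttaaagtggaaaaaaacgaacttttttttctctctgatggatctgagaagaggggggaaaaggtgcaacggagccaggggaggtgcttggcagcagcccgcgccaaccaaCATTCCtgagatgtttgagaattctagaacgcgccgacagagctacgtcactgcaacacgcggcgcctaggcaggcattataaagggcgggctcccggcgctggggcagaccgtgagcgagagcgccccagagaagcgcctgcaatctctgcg
On either strand this motif was present in 5 of 13 matched promoters of the list (38.5%), in 12.9% of all promoters, in 11.1% of those of genes called higher and in 14% of those of genes called lower.

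Among 25 Hippo components and TEAD cofactors 5 rose and 5 fell, beside 7.06% and 8.45% of all genes. Their median was 0.043 by counts and −0.11 by TPM as deposited. Yap1 had 262 and 259 CPM on day 4 and 271 and 261 CPM on day 2, and Wwtr1, which encodes TAZ, had 208 and 214 CPM and 203 and 207 CPM. Neither was called (edgeR adjusted p = 0.686 for Yap1 and 0.6 for Wwtr1). Of the TEAD genes, Tead2 fell, at −0.22 ± 0.046 (SE; adjusted p = 0.00091 by edgeR), and Tead1, Tead3 and Tead4 were not called (edgeR adjusted p = 0.2, 0.819 and 0.379). Vgll3, a TEAD cofactor, rose by 0.28 ± 0.048 (SE; adjusted p = 0.000127 by edgeR). Lats1 was called higher at 0.17 ± 0.053 (SE; adjusted p = 0.0295 by edgeR), a call lost whichever of the 4 libraries was left out, and Lats2 was not called (0.075, edgeR adjusted p = 0.512). When 1 library was left out, the higher calls of this list numbered 2, 2, 2 and 2 and the lower calls 3, 2, 3 and 2.

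**Figure D4:**
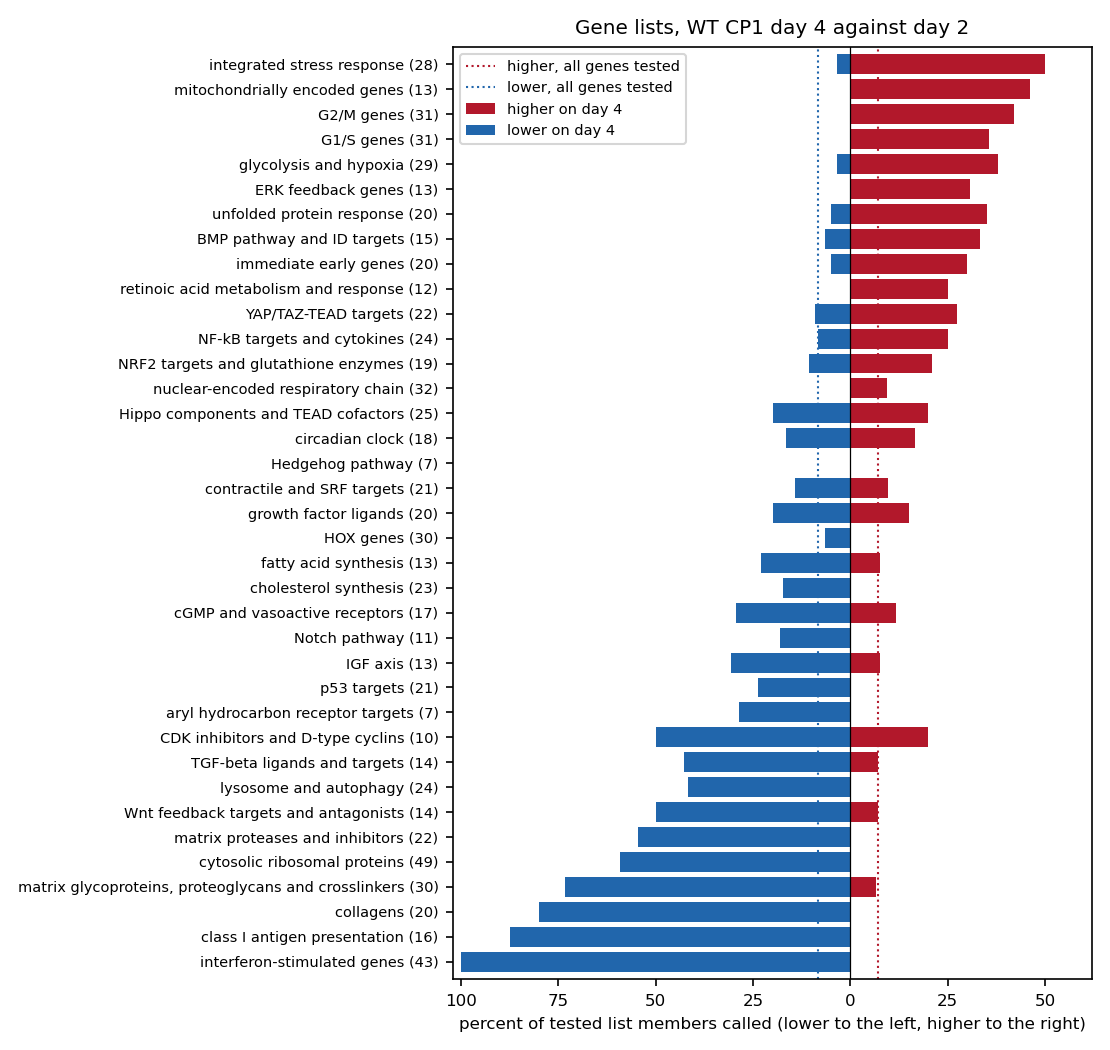
Percent of the tested members of 37 gene lists that were called higher or lower on day 4 than on day 2 of CP1 in WT cells. Dotted lines mark 7.06% higher and 8.45% lower among all genes tested, and the interferon list reaches 100% lower.

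Cell cycle genes changed by small amounts, and fewer of them passed the test than did not. Of 31 G2/M genes 13 rose and 0 fell, and all 31 had a positive change, with a median of 0.14 by counts (−0.014 by TPM as deposited, which is 0.12 above the median of all genes on that scale). The mitotic cyclin gene Ccnb1 had 183 and 183 CPM on day 4 against 156 and 149.6 CPM on day 2, a change of 0.26 ± 0.049 (SE; adjusted p = 0.000371 by edgeR). Anln, an actin-binding protein of the cleavage furrow, changed by 0.28 ± 0.048 (SE; adjusted p = 0.000115 by edgeR). Of 31 G1/S genes 11 rose and 0 fell, with a median of 0.11 by counts and −0.048 by TPM. Rrm2, a subunit of ribonucleotide reductase, had 210.5 and 219.8 CPM on day 4 against 171 and 159.5 CPM on day 2, a change of 0.38 ± 0.046 (SE; adjusted p = 5.78e-07 by edgeR). The replication licensing gene Cdc6 changed by 0.35 ± 0.068 (SE; adjusted p = 0.000618 by edgeR). Without 1 library in turn the higher calls numbered 9, 9, 8 and 6 for G2/M and 5, 5, 3 and 4 for G1/S.

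Regulators of cell cycle entry were divided. Ccnd1, the D-type cyclin that growth factors induce, had 185 and 186 CPM on day 4 against 147 and 143 CPM on day 2, a change of 0.35 ± 0.043 (SE; adjusted p = 5.78e-07 by edgeR), with 23.4% of its exon bases shared with another gene. Of 10 CDK inhibitors and D-type cyclins 2 rose and 5 fell, beside 7.06% and 8.45% of all genes. Next to Ccnd1 the inhibitor gene Cdkn2c (p18) rose, with 225 and 237.5 CPM on day 4 against 203 and 203.5 CPM on day 2. The change of Cdkn2c was 0.19 ± 0.045 (SE; adjusted p = 0.00448 by edgeR). Its call was lost without repeat 2 of day 4 or either repeat of day 2. The inhibitor gene Cdkn1c (p57) fell, with 3.05 and 2.51 CPM on day 4 against 4.86 and 5.66 CPM on day 2, a change of −0.92 ± 0.168 (SE; adjusted p = 0.00027 by edgeR). Cdkn2b (p15) changed by −0.28 ± 0.057 (SE; adjusted p = 0.000946 by edgeR). Of 21 p53 targets 0 rose and 5 fell, among them the stress gene Trp53inp1 at −0.51 ± 0.06 (SE; adjusted p = 4.51e-07 by edgeR) and the apoptosis-linked membrane protein gene Perp at −0.47 ± 0.085 (SE; adjusted p = 0.000264 by edgeR). With 1 library left out in turn the lower calls numbered 3, 2, 4 and 3 for CDK inhibitors and D-type cyclins and 2, 2, 2 and 3 for p53 targets.

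Part of the genes of amino acid supply and of sugar breakdown rose. In the integrated stress response, by which cells short of amino acids raise their synthesis and import, 14 of 28 members rose and 1 fell, with a median of 0.18. Its main transcription factor gene Atf4 had 189 and 192 CPM on day 4 against 145 and 140.1 CPM on day 2 and 215 and 219 CPM in WT DMSO. Both days lay below DMSO, day 4 less so, and the change was 0.42 ± 0.043 (SE; adjusted p = 3.53e-08 by edgeR). Atf5, a related factor, changed by 0.45 ± 0.045 (SE; adjusted p = 2.73e-08 by edgeR). Slc7a11, the cystine importer, had 39.25 and 44.2 CPM on day 4 against 25.1 and 25.3 CPM on day 2, a change of 0.73 ± 0.08 (SE; adjusted p = 1.17e-07 by edgeR). The serine synthesis genes Phgdh (0.29) and Psat1 (0.36) and the asparagine synthetase gene Asns (0.27) rose with them (edgeR adjusted p at most 0.000994). The member that fell was Pck2, the mitochondrial phosphoenolpyruvate carboxykinase, at −0.20 ± 0.047 (SE; adjusted p = 0.00367 by edgeR), a call lost without repeat 1 of day 4 or repeat 1 of day 2.

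Among 29 genes of glycolysis and hypoxia 11 rose and 1 fell, with a median of 0.18. Ldha, which makes lactate, had 1182.5 and 1282 CPM on day 4 against 966 and 959 CPM on day 2, a change of 0.36 ± 0.053 (SE; adjusted p = 5.8e-05 by edgeR). Hk2, a hexokinase, had 41.1 and 46.6 CPM on day 4 against 30.55 and 29.99 CPM on day 2, a change of 0.535 ± 0.075 (SE; adjusted p = 8.01e-06 by edgeR). Leaving out 1 library in turn, the higher calls numbered 11, 5, 7 and 5, those of the integrated stress response 12, 14, 12 and 13.

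Of 13 genes of the mitochondrial genome 6 rose and 0 fell, with a median of 0.30 beside 0.072 in WT DMSO. The complex III gene mt-Cytb had 2583 and 2619 CPM on day 4 against 1789.8 and 1656 CPM on day 2 and 1658 and 1589 CPM in WT DMSO, a change of 0.59 ± 0.042 (SE; adjusted p = 2.14e-11 by edgeR). Complex I subunit gene mt-Nd4 changed by 0.495 ± 0.041 (SE; adjusted p = 5.08e-10 by edgeR). Of 32 nuclear-encoded respiratory chain genes 3 rose (2, 2, 1 and 2 without 1 library) and 0 fell, beside 7.06% and 8.45% of all genes. Their median was 0.011 by counts and −0.14 by TPM.

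Changes of ribosomal protein genes were small. Of 49 cytosolic members 29 fell and 0 rose, with a median of −0.16, and 48 of 49 had a negative change. Rps14 had 487 and 497 CPM on day 4 against 602 and 615 CPM on day 2, a change of −0.31 ± 0.047 (SE; adjusted p = 2.85e-05 by edgeR), and Rpl17 changed by −0.29 ± 0.046 (SE; adjusted p = 3.62e-05 by edgeR). The count rested on every library: without 1 in turn it was 11, 15, 15 and 7. In lysosome and autophagy genes 10 of 24 fell and 0 rose, with a median of −0.15 and 5, 9, 7 and 5 lower calls without 1 library. Npc2, which carries cholesterol inside lysosomes, had 633 and 651 CPM on day 4 against 848 and 877 CPM on day 2, a change of −0.43 ± 0.041 (SE; adjusted p = 1.17e-08 by edgeR). The protease gene Ctsd (cathepsin D) changed by −0.34 ± 0.045 (SE; adjusted p = 2.08e-06 by edgeR) and shares 34.4% of its exon bases with another gene.

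Further metabolic and stress lists had calls in both directions or few calls. Their counts stand beside 7.06% higher and 8.45% lower among all genes, and several are near these shares. In the unfolded protein response 7 of 20 rose and 1 fell, with a median of 0.125 by counts and −0.03 by TPM, and with 3, 2, 5 and 2 higher calls without 1 library. Manf, a secreted protein that endoplasmic reticulum stress induces, rose by 0.32 ± 0.054 (SE; adjusted p = 9.91e-05 by edgeR) and the co-chaperone gene Dnajc3 by 0.26 ± 0.049 (SE; adjusted p = 0.000359 by edgeR). Of 19 NRF2 targets 4 rose and 2 fell, among them Gclc, which limits glutathione synthesis, at 0.48 ± 0.077 (SE; adjusted p = 5.01e-05 by edgeR), and the glutathione transferase gene Gsta4 at −0.52 ± 0.084 (SE; adjusted p = 4.76e-05 by edgeR), with 4, 2, 2 and 2 higher calls without 1 library. Cholesterol synthesis had 0 higher and 4 lower calls in 23 genes, and 4, 0, 0 and 0 lower calls without 1 library. Of 13 fatty acid synthesis genes 1 rose and 3 fell, led by the desaturase gene Scd2, with 657 and 606 CPM on day 4 against 915 and 884 CPM on day 2 and 496 and 491 CPM in WT DMSO. Scd2 was above DMSO on both days and nearer to it on day 4, a change of −0.51 ± 0.047 (SE; adjusted p = 4.81e-09 by edgeR).

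Growth factor signalling gave small groups of calls, beside 7.06% higher and 8.45% lower among all genes. Several of the counts are near these shares. Of 13 ERK feedback genes, which the ERK kinase pathway induces and which restrain it, 4 rose and 0 fell, with a median of 0.29. The ETS factor gene Etv5 had 42.9 and 41.3 CPM on day 4 against 27.1 and 29.4 CPM on day 2 and 47.98 and 48.9 CPM in WT DMSO, a change of 0.575 ± 0.074 (SE; adjusted p = 1.9e-06 by edgeR). Of 20 immediate early genes 6 rose and 1 fell. Myc, a transcription factor that promotes growth, had 20.75 and 21.3 CPM on day 4 against 14.5 and 15.1 CPM on day 2, a change of 0.505 ± 0.082 (SE; adjusted p = 5.84e-05 by edgeR). The stress-induced factor gene Atf3 changed by 0.69 ± 0.133 (SE; adjusted p = 0.000467 by edgeR), and Klf2 fell at −0.39 ± 0.08 (SE; adjusted p = 0.000944 by edgeR), a call lost without repeat 1 of day 4. Among 13 genes of the insulin-like growth factor axis 1 rose (Igfbp3) and 4 fell (4, 3, 2 and 3 without 1 library), among them Igfbp2 and the receptor substrate gene Irs1 at −0.55 ± 0.07 (SE; adjusted p = 2.34e-06 by edgeR). In 20 growth factor ligands 3 rose and 4 fell, with Fgf7, which acts on epithelium, at 0.29 ± 0.05 (SE; adjusted p = 0.000127 by edgeR) and Pdgfc, a ligand of PDGF receptors, at −0.53 ± 0.076 (SE; adjusted p = 1.12e-05 by edgeR). Without 1 library in turn this list had 3, 1, 2 and 1 higher and 2, 1, 1 and 2 lower calls.

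Developmental pathways differed from each other. Beside their counts stand 7.06% higher and 8.45% lower among all genes, and some counts are near these shares. Of 15 BMP pathway and ID genes 5 rose and 1 fell, with a median of 0.066 by counts and −0.065 by TPM. Id2, a helix-loop-helix inhibitor that BMP induces, had 97.3 and 103 CPM on day 4 against 78.6 and 74.25 CPM on day 2 and 48.3 and 52.6 CPM in WT DMSO, a change of 0.39 ± 0.058 (SE; adjusted p = 1.92e-05 by edgeR). Id1 changed by 0.38 ± 0.053 (SE; adjusted p = 8.45e-06 by edgeR). Of 14 Wnt feedback targets and antagonists 1 rose and 7 fell, with a median of −0.26, and the feedback inhibitor genes Nkd1 and Nkd2 changed by −0.995 ± 0.169 (SE; adjusted p = 0.000104 by edgeR) and −0.66 ± 0.119 (SE; adjusted p = 0.000194 by edgeR). Of 14 TGF-beta ligands and targets 1 rose and 6 fell, among them the matrix gene Tgfbi at −0.35 ± 0.043 (SE; adjusted p = 7.38e-07 by edgeR) and the SMAD-binding gene Pmepa1 at −0.315 ± 0.052 (SE; adjusted p = 7.36e-05 by edgeR). When 1 library was left out, the lower calls numbered 6, 5, 6 and 5 for Wnt and 4, 4, 4 and 4 for TGF-beta.

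Notch3, a receptor of mural and mesenchymal cells, fell with 58.99 and 61.03 CPM on day 4 against 92.95 and 90.3 CPM on day 2 and 50.6 and 52.4 CPM in WT DMSO, a change of −0.61 ± 0.06 (SE; adjusted p = 1.25e-08 by edgeR), one of 2 lower calls in 11 Notch genes. Of 12 retinoic acid genes 3 rose and 0 fell, with 2, 1, 1 and 2 higher calls without 1 library. Cyp26b1, which breaks down retinoic acid, had 90.3 and 87.3 CPM on day 4 against 54.1 and 51.2 CPM on day 2 and 14.2 and 14.8 CPM in WT DMSO. It stood above DMSO on both days and farther above it on day 4, a change of 0.755 ± 0.055 (SE; adjusted p = 3.64e-11 by edgeR). Of 30 HOX genes 2 fell and 0 rose, not more than the 8.45% lower and 7.06% higher among all genes. The same shares stand beside the other counts of this paragraph, several of which are near them. In 7 Hedgehog genes 0 were called by edgeR and by DESeq2 (3 at an unadjusted p under 0.05 by edgeR), and 3 fell in a fit of the WT libraries alone. Of 17 cGMP and vasoactive genes 2 rose and 5 fell, with the cGMP-dependent kinase gene Prkg2 at 0.57 ± 0.072 (SE; adjusted p = 1.35e-06 by edgeR) and 3, 3, 3 and 3 lower calls without 1 library. Of 21 contractile and SRF targets 2 rose and 3 fell (1, 1, 0 and 0 and 2, 1, 1 and 1 without 1 library), and the muscle actin gene Acta2 had 1112 and 992 CPM on day 4 against 1194 and 1212 CPM on day 2. Its change of −0.19 ± 0.058 (SE; adjusted p = 0.0289 by edgeR) lost its call without repeat 2 of day 4 or either repeat of day 2. Of 7 aryl hydrocarbon receptor genes 2 fell, the receptor gene Ahr at −0.31 ± 0.063 (SE; adjusted p = 0.000787 by edgeR), and circadian clock genes had 3 higher and 3 lower calls in 18, which dropped to 0 or 1 on each side without 1 library.

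Markers of fibroblasts and of other cells included called genes in both directions, beside 15.5% called among all genes. Of 14 fibroblast markers 1 rose and 5 fell (4, 3, 4 and 4 lower calls without 1 library), among them the mesenchymal factor gene Twist1, with 307 and 313 CPM on day 4 against 380.1 and 398 CPM on day 2, at −0.33 ± 0.043 (SE; adjusted p = 2.7e-06 by edgeR). Ly6a (Sca-1), a surface marker that interferon also induces, had 51.15 and 54.4 CPM on day 4 against 77.35 and 82.5 CPM on day 2 and 496.5 and 482 CPM in WT DMSO, a change of −0.60 ± 0.053 (SE; adjusted p = 2.09e-09 by edgeR). S100a4 rose at 0.62 ± 0.131 (SE; adjusted p = 0.00124 by edgeR), a call not made by TPM, and 51.7% of its exon bases are shared with another gene. Of the other marker lists, adipocyte genes had 1 higher call in 5 tested, cartilage and bone genes 1 higher (Spp1) and 1 lower in 10, endothelial genes 2 higher and 1 lower in 6, epithelial genes 0 in 6, neural genes 2 and 2 in 8, macrophage genes 1 lower in 4 and skeletal muscle genes 0 in 2. The macrophage call was Lyz2, at most 0.53 CPM in the 4 libraries and lost as a call without repeat 2 of day 4 or either repeat of day 2, and the pan-leukocyte gene Ptprc had at most 3 counts in any of them.

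The change under CP1 was then set against the change under DMSO by testing the difference of both day changes, a contrast that equals the CP1 effect on day 4 minus that on day 2. It passed for 589 genes (3.56%), of which 158 changed more in the higher direction under CP1 (0.954%) and 431 in the lower (2.6%). Of the 43 interferon-stimulated genes 41 had a lower difference, as did 12 of 16 class I genes, 14 of 20 collagens and 16 of 30 matrix glycoproteins. In the higher direction stood 6 of 28 integrated stress response genes and 4 of 13 genes of the mitochondrial genome, while cell cycle lists had 1 call each and ribosomal proteins 5 of 49, all lower. For Irf7 the difference was −2.62 ± 0.086 (SE; adjusted p = 6.58e-18 by edgeR) and for Apod −2.85 ± 0.132 (SE; adjusted p = 9.01e-15 by edgeR). In the other direction Hp differed by 2.55 ± 0.2 (SE; adjusted p = 4.25e-10 by edgeR) and Saa3 by 1.37 ± 0.138 (SE; adjusted p = 7.44e-08 by edgeR). Ccn2 differed by 0.65 ± 0.1 (SE; adjusted p = 8.34e-05 by edgeR) and Ccn1 by 0.26 ± 0.083 (SE; adjusted p = 0.088 by edgeR), the second of which was not called. With 1 DMSO library a day this test is weaker than that of CP1 alone. The number of calls was 382 and 389 without repeat 1 and repeat 2 of day 4, 361 and 308 without repeat 1 and repeat 2 of day 2, and 1314 and 1326 without repeat 1 and repeat 2 of DKO CP1 day 2, which enter through the shared estimate of spread.

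Finally the day change of WT cells was set against that of DKO cells, both under CP1 and with no library in common. The difference passed for 1694 genes (10.2%), 809 of them with a higher change in WT (4.88%) and 885 with a lower one (5.34%). The day change in DKO CP1 itself was called for 4038 genes (24.4%). In DKO DMSO, with 1 library a day, the same interval gave 4634 calls (28%) and a chi-square of 43.4 per degree of freedom, against 0 calls and 1.95 in WT DMSO. The DKO DMSO libraries of the days thus differed without CP1 too. With 1 library a day, a change with time cannot be told apart from a difference between single libraries. The part of this in the difference between the genotypes was not tested. Of the genes that rose in WT, 74.5% had a positive change in DKO CP1, and of those that fell 28.9% did, beside 48.8% of all genes tested. Without a library, the calls of the difference numbered 1142 and 1136 for repeats 1 and 2 of day 4, 1013 and 1075 for those of day 2, 975 and 1183 for those of DKO CP1 day 4, and 2672 and 1909 for those of DKO CP1 day 2.

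The genotypes parted in the interferon, class I, matrix, amino acid and sugar lists, among others. Interferon-stimulated genes had a median of −1.24 in WT and −0.024 in DKO, and 39 of 43 had a lower change in WT. In DKO CP1 libraries their median level was already only 1.74% and 1.61% of the WT DMSO mean on day 4 and 1.74% and 1.73% on day 2. Members named above were low in DKO cells without the drug too. In DKO DMSO on days 4 and 2, Irf7 had 1.7 and 1.28 CPM, Oas2 0.23 and 0.35 CPM and Gbp3 5.27 and 4.65 CPM. A median level over the list was not computed there. The part of the low level of DKO cells in the difference was not tested. Class I genes had a lower change in WT in 14 of 16, with medians of −0.62 in WT and −0.26 in DKO. Collagens had a lower change in WT in 9 of 20 and a higher one in 2, with medians of −0.41 and −0.18. Glycolysis and hypoxia genes had a median of 0.18 in WT and −0.94 in DKO, and 19 of 29 differed, all with the higher change in WT, while their median in DKO DMSO was −0.14. Ldha, higher on day 4 in WT, had 958.5 and 924 CPM on day 4 and 1674 and 1919.7 CPM on day 2 in DKO CP1, and its changes differed by 1.29 ± 0.075 (SE; adjusted p = 1.46e-10 by edgeR). Integrated stress response genes had medians of 0.18 and −0.074, and 16 of 28 had the higher change in WT. Their median in DKO DMSO was −0.186, lower than in DKO CP1. The DKO DMSO medians were −0.05 for interferon-stimulated genes, −0.048 for class I genes, −0.08 for collagens and −0.015 for matrix glycoproteins. Matrix glycoproteins had medians of −0.32 in WT and 0.041 in DKO, with 20 of 30 lower in WT. Dcn, for one, rose less in WT, and its changes differed by −1.065 ± 0.066 (SE; adjusted p = 5.58e-12 by edgeR). Apod fell in WT and had 9.25 and 9.18 CPM on day 4 and 4.3 and 3.2 CPM on day 2 in DKO CP1, a difference of −4.02 ± 0.176 (SE; adjusted p = 9.71e-15 by edgeR).

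Of 14 TGF-beta ligands and targets 7 had a higher and 1 a lower change in WT, and of 18 circadian clock genes 7 and 4. The ribosomal protein and cell cycle lists gave few differences between the genotypes, which does not show that they moved alike. Of 49 ribosomal protein genes 0 differed by edgeR (3 at an unadjusted p under 0.05), with medians of −0.16 in WT and −0.19 in DKO. Of 31 G1/S genes 0 differed by edgeR (5 at an unadjusted p under 0.05), with medians of 0.11 and 0.15. Among G2/M genes 1 of 31 differed, with medians of 0.14 and 0.14. The medians in DKO DMSO were 0.035 for ribosomal protein genes, −0.068 for G1/S genes and 0.217 for G2/M genes. Saa3 changed by 1.26 in WT and 1.37 in DKO, a difference of −0.11 ± 0.119 (SE; adjusted p = 0.654 by edgeR). Ccn2 changed by 0.62 in WT and 0.004 in DKO, a difference of 0.61 ± 0.08 (SE; adjusted p = 4.09e-06 by edgeR), and Ccn1 by 0.30 and −0.20, a difference of 0.50 ± 0.066 (SE; adjusted p = 5.14e-06 by edgeR).

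**Figure D5:**
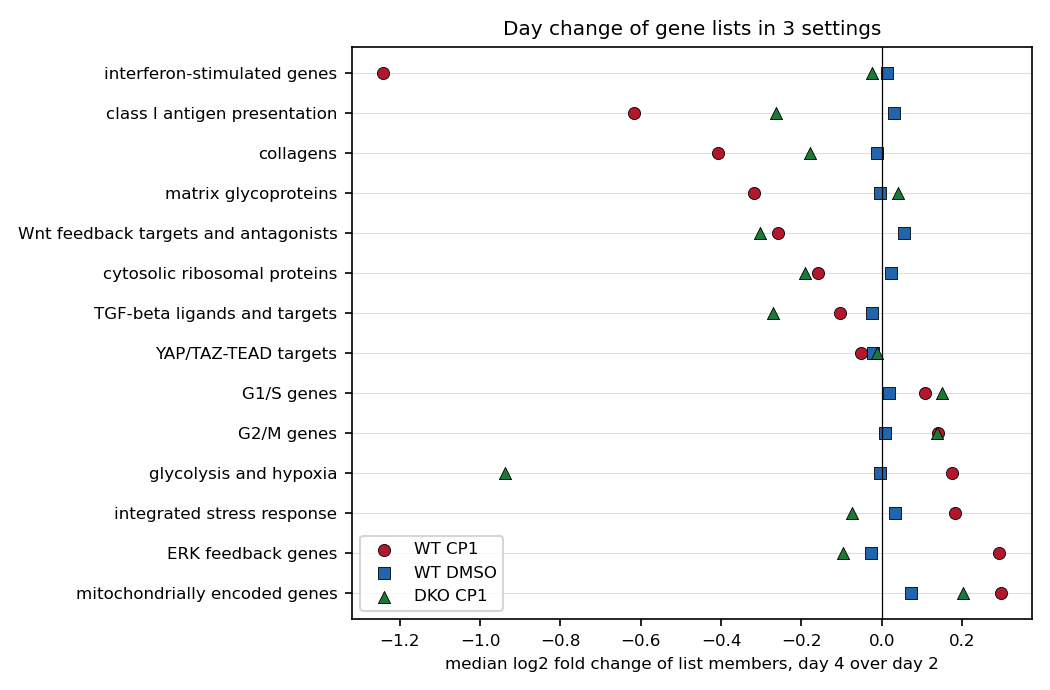
Median log2 change from day 2 to day 4 over the tested members of 14 gene lists in WT CP1, WT DMSO and DKO CP1. WT DMSO medians lie near 0, the interferon list stands at −1.24 in WT CP1 and −0.024 in DKO CP1, and glycolysis and hypoxia genes stand at 0.18 in WT CP1 and −0.94 in DKO CP1.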

How the data were processed

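Read counts and TPM per gene from total RNA of 12 libraries were used. Per the submitters' processing notes, reads were counted with featureCounts 1.5.2 on mm10. The aligner and the strand setting are not given in the sources used here, so reads of overlapping genes on opposite strands cannot be told apart. The deposited counts are not normalized, and the deposited TPM are each count over gene length, rescaled per library (largest deviation 1.56e-12 percent).

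Of 32168 genes, 692 were left out by type and 14913 by edgeR's filter (minimum count 10, minimum total 15), which left 16563. All gene IDs matched the table of gene names. The main test was the quasi-likelihood test of edgeR 4.0.16 in R 4.3.3, after TMM scaling, over 8 group means (4 residual degrees of freedom), at a Benjamini-Hochberg adjusted p of 0.05. It takes single DMSO libraries to vary like the pairs. The pipeline was tested on simulated data. CPM are counts over TMM-scaled totals of the genes kept. Promoters came from RefSeq tables, within 1000 bases of the deposited 5′ end, leaving out 1 chromosome.

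The members of 45 lists (881 symbols, 822 tested) were chosen with earlier results of these data known. Named genes were a fixed set of 13 Hippo genes and targets, the 12 higher and 12 lower called genes with the largest log2 change, a mean of at least 4 CPM, no overlap of the days and a proper symbol, the 5 higher and 5 lower for the difference from DMSO, and up to 2 called genes per list and direction with the smallest p. Further genes (H2-K1, Pdgfra, Lbp, Serpina3n, Lcn2, Ccl2, Ccl7, Csf1, Nfkb1, Cebpd, Col4a1, Col4a2, Col3a1, Col6a1, Col11a1, Phgdh, Psat1, Asns, and those of the observations) were chosen after their values were seen. Alternatives were DESeq2 1.42.0, RLE size factors, no filter, the left-out types kept, fewer libraries in the fit, a replicate block, limma 3.58.1 on log2(TPM + 1) and log2(TPM + 0.1), and leaving out each library. TPM rescaled without the left-out types was added after seeing the data.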

Additional observations from a re-analysis of the deposited data

Results flagged for a closer look

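Each value here is a difference between 2 day changes, day 4 against day 2, that passed its own edgeR test, which is why it stands out. Against WT DMSO, 589 genes differed, and against DKO CP1, 1694.

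Against WT DMSO, the lower changes under CP1 were those of the antiviral and interferon-induced genes Rsad2 (−2.94), Irf7 (−2.62), Oas2 (−2.61), Ifi27l2a (−2.31), Mx1 (−2.28), Zbp1 (−1.99), Gbp3 (−1.84), Ifit3b (−1.83) and Ifi44 (−1.75), on the log2 scale. The lipocalin gene Apod (−2.85), Arhgap36 (−2.35) and Igfbp2 (−2.2) joined them. The higher changes were those of the acute phase genes Hp (2.55), Saa3 (1.37) and Cp (1.03), the secreted protein genes Prl2c2 (1.61), Ccl20 (1.19), Angptl4 (1.13) and Spp1 (1.11), the receptor gene Il1rl1 (1.04), and Bend4 (1.34) and Trmt61a (1.02). DESeq2 did not call this difference for Mx1, Angptl4, Bend4 and Trmt61a.

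Against DKO CP1, the change in WT was lower for Apod (−4.02), Zbp1 (−2.51), Mx1 (−2.37), Arhgap36 (−2.32), Oas2 (−2.23), Irf7 (−2.21), Gbp3 (−2.14), Ifit3b (−2.1), Ifi27l2a (−1.7), Ifi44 (−1.66) and Igfbp2 (−1.63). It was higher for Peg3 (4.65), Prl2c2 (1.61), Ccl20 (1.5), Bend4 (1.47), Spp1 (1.41) and Il1rl1 (0.77). Mx1, Zbp1 and Peg3 had few reads in DKO cells: Mx1 stood at 0.93 and 0.23 CPM on day 4 and 0.96 and 0.22 CPM on day 2 of DKO CP1, Zbp1 at 0.46 and 0.51 and 0.28 and 0.38 CPM, and Peg3 at 0 and 0.06 and 0.17 and 0.54 CPM. Irf7, at 0.85 and 1.19 and 1.3 and 1.25 CPM, and Oas2, at 1.52 and 1.7 and 1.93 and 2.17 CPM, were low there too. The call of Mx1 against DKO CP1 was lost by DESeq2, by limma on log2(TPM + 0.1), with the left-out gene types kept, without either DKO DMSO library or repeat 1 of DKO CP1 day 4 (−0.93), and whichever of the 4 WT CP1 libraries was left out. That of Peg3 was lost in all 3 limma tests of TPM and without DKO CP1 day 4 repeat 1 or day 2 repeat 2.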

How the results depend on the processing

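The number of genes that changed from day 2 to day 4 in WT CP1, 2568, was 1210 by DESeq2 (1201 of them shared), 598 and 521 by limma on log2(TPM + 1) and log2(TPM + 0.1), and 1414 by TPM rescaled without the left-out types. TPM as deposited put the median of all genes at −0.133 and −0.154 log2, and the share of higher calls at 10.2% and 12.9% beside 45.5% by counts and 50.8% by rescaled TPM. Of 134 named calls 45 held under every setting, 48 were lost only by TPM as deposited and 41 under another setting, and under both TPM settings Acly (−0.001) and Vcl (−0.019) reversed. In WT DMSO, 0 genes by edgeR stood beside 70 and 111 by the TPM settings. The difference from WT DMSO (589) gave 1383 with WT libraries only, 289 by DESeq2, 153 and 188 by TPM and 121 by rescaled TPM, and that from DKO CP1 (1694) gave 864, 413, 366 and 826. Leaving out 1 library gave 1173 to 3633, 0 to 0, 308 to 1326 and 975 to 2672 calls for the 4 comparisons. The causes were not tested. Repeats share only a number (correlation of their deviations 0.00262 in WT CP1 and 0.132 in DKO CP1, 2 pairs each). With a replicate block the calls were 3177 for the day change in WT CP1, 988 for the difference from DMSO and 2219 for that from DKO CP1. Depth limits mainly genes below 1 CPM.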

Other observations

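Several gene families, taken by the first letters of their symbols after the values were seen, held further called genes that are members of no list. These were 4 of 4 genes whose symbols begin with Oas (median log2 change −1.34), 5 of 8 Gbp genes (−0.83), 7 of 10 H2- genes (−0.97), 4 of 7 Slfn genes (−0.72) and 3 of 7 Apol genes (−0.55), all lower on day 4, while the medians in WT DMSO lay between 0.02 and 0.11. Among the Schlafen genes, which restrain growth and viral protein synthesis, Slfn2 had 1.2 and 1.49 CPM on day 4 against 6.4 and 6.0 CPM on day 2 and 66.1 and 64.9 CPM in WT DMSO. The small leucine-rich proteoglycan genes, which order collagen fibrils, fell in Aspn (−1.45), Omd (−1.09), Lum (−0.94), Fmod (−0.93) and Ogn (−0.89; edgeR adjusted p at most 0.00576), whereas Dcn of the same family rose. Lum, Fmod, Ogn and Dcn are members of the matrix list above, and Aspn and Omd are in no list. In 8 Adamts protease genes outside the lists 2 fell and 1 rose, and in all 13 Adamts genes tested 7 fell and 1 rose. Beside the family counts of this paragraph stand 8.45% lower and 7.06% higher among all genes.

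Single genes outside the lists also stood out. Txnip, which restrains glucose uptake and binds thioredoxin, had 44.9 and 47.3 CPM on day 4 against 115 and 118 CPM on day 2 and 222 and 221 CPM in WT DMSO, a change of −1.34 ± 0.054 (SE; adjusted p = 8.16e-17 by edgeR). Its relative Arrdc4 changed by −1.19 ± 0.138 (SE; adjusted p = 3.13e-07 by edgeR). The transferrin receptor gene Tfrc, for iron uptake, rose by 0.74 ± 0.073 (SE; adjusted p = 8.82e-08 by edgeR), and the iron exporter gene Slc40a1 fell, with 1.35 and 1.02 CPM on day 4 against 4.29 and 2.98 CPM on day 2, at −1.61 ± 0.295 (SE; adjusted p = 0.000269 by edgeR). Enzymes that break down extracellular nucleotides, Entpd1 (−1.64), Entpd2 (−1.38) and Entpd3 (−1.42), were all lower at levels under 4 CPM (edgeR adjusted p at most 0.00614). Of integrin genes, Itga2 rose at 1.285 and Itga8 and Itga11 fell at −1.08 and −1.54 (edgeR adjusted p at most 0.00063). The chemokine gene Cxcl14 had 87.1 and 83.8 CPM on day 4 against 227 and 221 CPM on day 2, a change of −1.39 ± 0.061 (SE; adjusted p = 1.58e-14 by edgeR), and Tnfrsf12a, the receptor for TWEAK, rose by 0.81 ± 0.055 (SE; adjusted p = 9.56e-12 by edgeR).

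Repeat 2 of day 4 set apart a group of low genes of liver. Hpx, Pzp, Tdo2, Mup20 and Abcc2 were called higher on day 4 with repeat 2 above repeat 1: Hpx had 1.51 and 3.69 CPM on day 4 against 0.96 and 1.17 CPM on day 2, and Pzp had 1.51 and 4.28 CPM against 1.05 and 1.05 CPM. Of the 47 genes that rose at least 2-fold, 6 had repeat 2 at 2 or more times repeat 1 and 0 the reverse, and 31 were 2-fold above the day 2 mean by repeat 1 alone and 44 by repeat 2 alone. Of the 152 that fell, 129 and 130 were 2-fold below it by repeat 1 and by repeat 2.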
